A study of Anas platyrhynchos with 6 samples.

Results

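Transcripts of 84 genes for mitosis, DNA replication and kinesin motors were followed in the ovaries of 6 ducks (Anas platyrhynchos). The genes were those of 16450 in the deposited table whose symbol belongs to the cyclins A, B, D and E, the cyclin-dependent kinases CDK1, CDK2, CDK4 and CDK6, the centromere proteins, the aurora and polo-like kinases, the spindle checkpoint, the replication licensing and polymerase families, or the KIF kinesins. Where a symbol had several rows, the row with the highest mean level was used. No row carried the symbol CDK2, CDK4, CCNB1, AURKB, AURKC or BUB1, so these are not among the 84 genes. By role, 9 were cyclins and CDKs, 14 were mitotic kinases, checkpoint and spindle assembly genes, and 11 were centromere and kinetochore genes. Another 8 were kinesins of cell division, 19 were transport and other kinesins, and 23 were replication genes. The group of 19, also called transport kinesins below for short, holds every KIF gene not listed under cell division. It was not limited to carriers of cargo. The ducks came from a full-sib family, were 71 weeks old and had no stated treatment, with feed withheld before sampling. They formed a group of 3 with a high egg number (HEN) and a group of 3 with a low egg number (LEN), with 1 RNA sequencing library of ovarian tissue per duck. The labels do not say which follicle stages or regions the tissue pieces held.

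Before a cell divides, the origin recognition complex loads the MCM helicase on DNA, cyclin-bound kinases start replication, and DNA polymerases copy the genome. Cyclin B with CDK1 then drives entry into mitosis, aurora and polo-like kinases build the spindle, kinesins move its microtubules, and the BUB and MAD2 checkpoint holds separation until every kinetochore is attached. In the ovary these genes serve dividing granulosa and other somatic cells, and growing oocytes of vertebrates store many of the same transcripts for meiosis and for the divisions of the early embryo. Many kinesins have no part in division and carry vesicles, organelles or ciliary cargo along microtubules in most cells.

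The libraries of the HEN group were not alike. HEN replicate 1 resembled LEN, with Pearson correlations across genes, on log2(FPKM + 1), of 0.933 to 0.964 with the LEN libraries. Its correlation was 0.748 with HEN replicate 2 and 0.752 with HEN replicate 3, a pair that correlated at 0.965. Genes are not independent replicates, so these values only describe the libraries. FPKM is the number of fragments scaled to transcript length and library size, so that levels can be compared between genes. The inferred depth was 18213744 to 19831761 fragments per library, at which 3 fragments on a transcript of 1 kb equal 0.151 to 0.165 FPKM. Levels below that rest on very few fragments for a transcript of such a length. The ovarian transcription factor gene FOXL2 was present in every library, at 175 FPKM in HEN replicate 1, 33.1 in replicate 2, 55.2 in replicate 3 and 152 to 154 in LEN.

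The comparison asked which of these transcripts differ between ovaries of ducks with a high and a low egg number. Most division genes had a lower mean in HEN, and the gap came from HEN replicates 2 and 3, while HEN replicate 1 stayed close to LEN. The mitotic kinases, the division kinesins, and the cyclins and CDKs had the largest median differences between the groups. Those of the licensing and kinetochore genes were smaller, and that of the transport and other kinesins was the smallest. In HEN replicate 2 alone, the median kinetochore gene was at 12.9% of its LEN mean and the median cyclin or CDK gene at 15.7%. No gene passed the test across all transcripts. With limma, 0 of the 80 genes tested had an adjusted p under 0.05 in either direction, as for all 13328 transcripts tested (0.0% called higher and 0.0% called lower), and their adjusted p lay between 0.226 and 0.994. The genes left out of the test were KIF1A, KIF2B, KIF6 and KIF12, whose mean over the 6 libraries was under 1 FPKM.

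Of the 80 genes tested, 74 had a lower and 6 a higher mean in HEN (92.5% lower, where 62.9% of all transcripts were). At an unadjusted p under 0.05 there were 31 lower genes (38.75%, where 16.9% of all transcripts were lower at that threshold) and 0 higher genes (5.1% of all transcripts). The HEN and LEN libraries did not overlap for 10 genes with HEN below LEN, or 12.5%, where 13.4% of all transcripts had no overlap in that direction, a share near that of the genes here. No gene lay above LEN in all HEN libraries, where 6.92% of all transcripts did. The 10 were CCNE1, CCNE2, TPX2, BUB1B, CDC20, PLK1, CENPI, CENPK, ORC4 and KIF26B. The median difference over the 80 genes was -1.11 on the log2(FPKM + 1) scale, against -0.24 over all transcripts.

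Library by library, HEN replicate 2 lay below every LEN library for 71 of the 80 genes and HEN replicate 3 for 69, where 54.7% and 54.6% of all transcripts did so. HEN replicate 1 lay below every LEN library for 12 of them (20.3% of all transcripts) and within the LEN range for 48, or 60% (59.1% of all transcripts). Above every LEN library lay 20 genes in HEN replicate 1, 3 in HEN replicate 2 and 3 in HEN replicate 3, where 20.6%, 27.0% and 27.9% of all transcripts did. Within LEN, replicate 3 was the highest library for 38 of the 80 genes (41.6% of all transcripts). As a share of the LEN mean, the median of the 80 genes was 98.6%, 19.9% and 28.3% in HEN replicates 1, 2 and 3. The median of all transcripts was 98.4%, 73.9% and 73.6%. On leaving out HEN replicate 1, 58 genes passed as lower (72.5%, where 37.0% of all transcripts were called lower) and 1 as higher (11.8% of all transcripts). With sample weights, 64 passed as lower (43.0% of all transcripts) and 1 as higher (16.5% of all transcripts). Leaving out HEN replicate 1, the HEN library that resembled LEN, also removed much of the spread within HEN. The sample weights were estimated from these same values, so neither count is independent of the pattern described here. Leaving out HEN replicates 2 and 3 together gave 0 calls (0.0% of all transcripts called lower and 0.0075% higher) and a median difference of 0.0048.

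**Figure D1:**
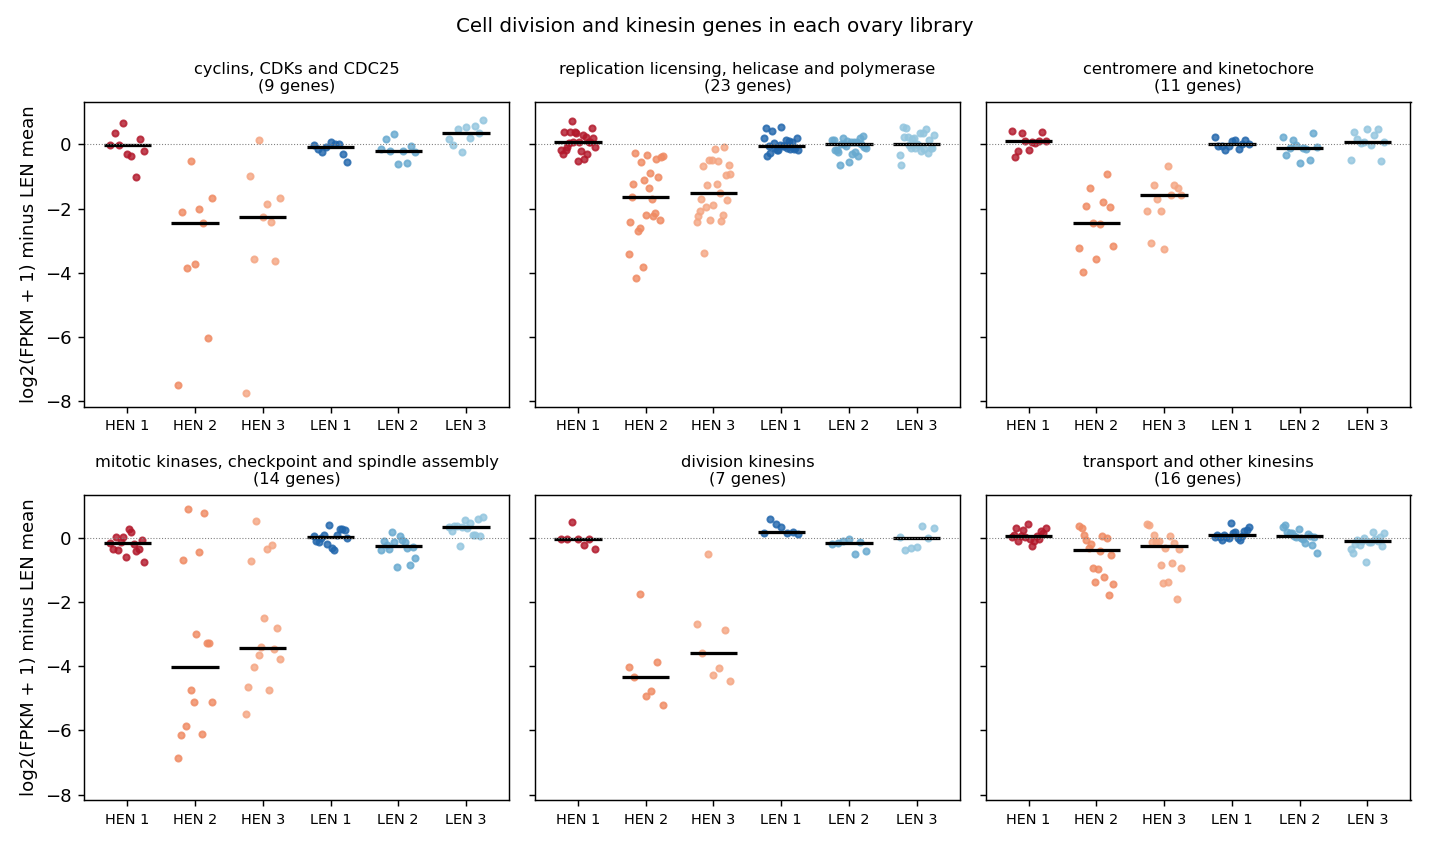
Each point is 1 gene in 1 library, as log2(FPKM + 1) minus the mean of the LEN libraries, in 6 panels by role, with the black bar at the median and only genes with a mean of at least 1 FPKM shown. The medians of HEN replicates 2 and 3 lie at -4.34 and -3.59 for the division kinesins and at -0.37 and -0.25 for the transport and other kinesins, while HEN replicate 1 stays near 0 in each panel.

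Cyclins and their kinases showed the widest span. CCNA1 (ENSAPLG00000009813, positions 1468117 to 1471242 of scaffold KB742992.1), the A-type cyclin that in mice is restricted mainly to germ cells, reached 243 FPKM in HEN replicate 1 but 0.367 in replicate 2 and 0.151 in replicate 3, while LEN replicates 1 to 3 had 239.97, 220.2 and 274 FPKM. Values of other genes follow the same library order. It was thus as high in HEN replicate 1 as in LEN and close to the limit of detection in the other HEN ovaries, a difference of -5.07 ± 1.93 (SE). Its relative CCNA2, which is used by dividing cells in general, was at 25.5, 3.79 and 9.52 FPKM in HEN and at 17.7, 22.3 and 19.6 FPKM in LEN (difference -0.92 ± 0.58, SE). The ratio of CCNA1 to CCNA2 was 9.53 in HEN replicate 1 and 9.87 to 13.98 in LEN, but 0.0968 and 0.0159 in HEN replicates 2 and 3, so that the more abundant A-type cyclin was a different one in those libraries.

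CCNB2, a mitotic partner of CDK1, was the most abundant member, at 349, 23.9 and 29.5 FPKM in HEN and at 300.1, 307 and 497 FPKM in LEN. CDK1 itself (ENSAPLG00000010270, positions 526732 to 533314 of scaffold KB742802.1) was at 198, 1.73 and 13.3 FPKM in HEN and at 143, 169.5 and 227 FPKM in LEN. The cyclin and its kinase kept different shares of their LEN means, at 6.49% and 8.03% for CCNB2 but 0.962% and 7.42% for CDK1 in HEN replicates 2 and 3. Their differences were -2.48 ± 0.96 and -3.16 ± 1.39 (SE).

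The E-type cyclins, which act at the start of replication, lay below every LEN library in HEN replicate 1 as well. So did 15% of the 80 genes and 20.3% of all transcripts. CCNE2 (ENSAPLG00000007612, positions 168808 to 179284 of scaffold KB742405.1) was at 19.9, 6.86 and 6.92 FPKM in HEN and at 41.7, 27.1 and 62.6 FPKM in LEN. Every HEN value was below the lowest LEN value (difference -1.96 ± 0.48, SE). CCNE2 had the smallest unadjusted p of these genes in limma, 0.00487, with an adjusted p of 0.226. CCNE1 was at 28.3, 8.16 and 9.34 FPKM in HEN and at 36.4, 31.4 and 41.9 FPKM in LEN, also without overlap, a difference of -1.41 ± 0.46 (SE).

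Among the D-type cyclins, which link growth signals to the cell cycle, CCND1 and CCND3 went different ways. CCND3 was at 34.9, 2.34 and 8.19 FPKM in HEN and at 44.6, 27.9 and 62.4 FPKM in LEN (difference -2.08 ± 0.82, SE). CCND1 was at 27.6, 11.6 and 18.8 FPKM in HEN and at 16.1, 21.4 and 14.5 FPKM in LEN (difference 0.087 ± 0.35, SE), and its groups overlapped widely. The sign for CCND1 was negative without HEN replicate 1, without LEN replicate 3 and with sample weights. CDK6, a kinase partner of D-type cyclins, was at 22.4, 7.56 and 7.45 FPKM in HEN and at 17.6, 22.1 and 44.6 FPKM in LEN (difference -1.18 ± 0.51, SE). Of the 9 cyclins and CDKs, 8 had a lower mean in HEN (88.9%, where 62.9% of all transcripts had), and 0 passed. At an unadjusted p under 0.05, 5 were lower (55.6%, where 16.9% of all transcripts were).

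**Figure D2:**
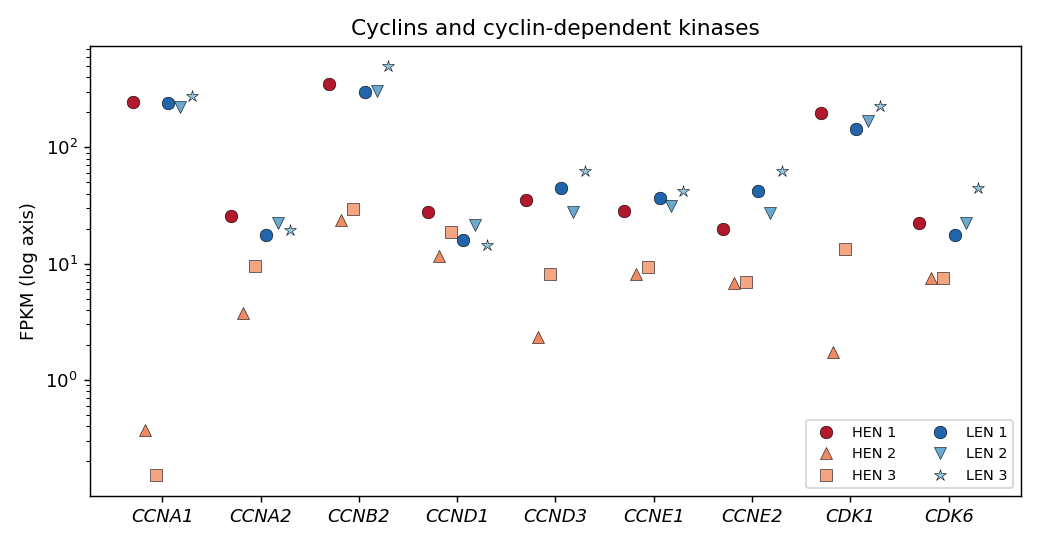
FPKM on a log axis for the 9 cyclins and CDKs, 1 symbol per library with HEN left of LEN for each gene. CCNA1 spans the widest range, with HEN replicates 2 and 3 at 0.367 and 0.151 FPKM and the other libraries above 200 FPKM, whereas the CCND1 symbols of both groups mix.

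Mitotic kinases and checkpoint genes held some of the lowest remaining levels. AURKA, the kinase of spindle poles, was at 169.6, 0.638 and 3.22 FPKM in HEN and at 195, 144 and 239.9 FPKM in LEN (difference -4.17 ± 1.57, SE). TPX2 (ENSAPLG00000010382, positions 27824 to 35826 of scaffold KB743947.1), which activates aurora A on the spindle, lay below the whole LEN range in each HEN duck, at 54.5%, 1.42% and 5.56% of the LEN mean (difference -3.23 ± 1.03, SE). PLK1, the main polo-like kinase of mitosis, was at 118, 0.954 and 4.07 FPKM in HEN and at 142, 123 and 142 FPKM in LEN. Its groups did not overlap (difference -3.69 ± 1.37, SE), and its position overlaps another gene.

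Checkpoint genes divided by partner. BUB1B, the checkpoint kinase-like protein BUBR1, was at 70.1, 0.277 and 2.60 FPKM in HEN and at 83.9, 82.7 and 105 FPKM in LEN, without overlap (difference -3.72 ± 1.33, SE). BUB3, which binds BUB1B in the same checkpoint complex, was at 80.3, 49.2 and 47.8 FPKM in HEN and at 73.4, 67.7 and 103 FPKM in LEN (difference -0.47 ± 0.29, SE). BUB3 therefore stayed at 60.4% and 58.7% of its LEN mean in HEN replicates 2 and 3, where BUB1B was at 0.307% and 2.88%. CDC20, the activator of the anaphase-promoting complex, was at 114, 1.60 and 8.27 FPKM in HEN and at 147, 117 and 193 FPKM in LEN, without overlap (difference -3.42 ± 1.24, SE). MAD2L1, the checkpoint protein MAD2, was at 10.6% and 15.6% of its LEN mean in HEN replicates 2 and 3, against 71.1% and 75.3% for MAD2L2, which is known as a subunit of a repair polymerase.

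The polo-like family showed the same kind of division. PLK4, which licenses centriole duplication, was at 5.96% and 9.84% of its LEN mean in HEN replicates 2 and 3, and PLK3 at 8.06% and 6.93%. PLK2, known as a stress- and serum-inducible kinase, was at 35.5, 81.3 and 39.9 FPKM in HEN and at 57.1, 37.3 and 49.9 FPKM in LEN, and its groups overlapped (difference 0.040 ± 0.36, SE). The ratio of PLK1 to PLK2 was 3.32 in HEN replicate 1 and 2.48 to 3.29 in LEN, against 0.0117 and 0.102 in HEN replicates 2 and 3. The CDCA genes, named for their association with the cell cycle, were split as well. CDCA8, the chromosomal passenger protein borealin, was at 38.4, 0.725 and 4.66 FPKM in HEN and at 77.0, 30.4 and 85.8 FPKM in LEN (difference -3.04 ± 1.08, SE).

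CDCA4 was the 1 member that passed as higher without HEN replicate 1 (adjusted p = 0.0312 in limma), at 20.7, 42.9 and 32.7 FPKM in HEN and at 23.8, 25.7 and 18.9 FPKM in LEN. With all libraries its difference was 0.43 ± 0.31 (SE) and its adjusted p was 0.375. In this role, 12 of 14 genes had a lower mean in HEN (85.7%, where 62.9% of all transcripts had). Of the 14, 9 were lower at an unadjusted p under 0.05 (64.3%, where 16.9% of all transcripts were). HEN lay below LEN without overlap for 4 (28.6%, where 13.4% of all transcripts did). This was the highest such share of the 6 roles. It was 22.2% for cyclins and CDKs and 18.2% for centromere and kinetochore genes. Below the share of all transcripts were replication genes (4.35%), division kinesins (0%) and transport kinesins (6.25%).

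All 11 centromere and kinetochore genes had a lower mean in HEN, where 62.9% of all transcripts had. Of these, 3 had an unadjusted p under 0.05 (27.3%, where 16.9% of all transcripts were lower at that threshold). All 11 lay below every LEN library in both HEN replicates 2 and 3, where 54.7% and 54.6% of all transcripts did. CENPI, an inner kinetochore protein, was at 16.4, 0.475 and 1.76 FPKM in HEN and at 21.4, 17.1 and 28.98 FPKM in LEN, without overlap (difference -2.47 ± 0.86, SE). CENPK, of the same inner layer, was at 15.03, 3.88 and 6.65 FPKM in HEN and at 16.8, 15.8 and 19.5 FPKM in LEN, also without overlap (difference -1.12 ± 0.44, SE). CENPM, another inner protein, overlapped between the groups, at 44.1, 12.8 and 9.92 FPKM in HEN and at 30.4, 37.5 and 34.8 FPKM in LEN (difference -0.89 ± 0.52, SE).

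CENPO, CENPP, CENPQ and CENPU belong to 1 kinetochore subcomplex, yet kept unequal levels. CENPQ was at 54.4, 14.3 and 17.0 FPKM in HEN and at 46.9, 47.6 and 63.96 FPKM in LEN, and CENPU was at 36.0, 17.0 and 13.2 FPKM in HEN and at 33.9, 23.4 and 46.6 FPKM in LEN. CENPO was at 18.7, 0.883 and 1.33 FPKM in HEN and at 23.2, 13.9 and 30.3 FPKM in LEN. The highest of the 4 subunits exceeded the lowest 3.07 times in HEN replicate 1 and 2.52 to 3.88 times in LEN, but 19.2 and 12.8 times in HEN replicates 2 and 3. The positions of CENPO, CENPP and CENPU overlap other genes. NDC80, which binds microtubules, was at 4.53% and 28.6% of its LEN mean in HEN replicates 2 and 3, and CENPF at 2.29% and 16.2%. Low shares in HEN replicate 2 were not a trait of the outer kinetochore. The inner gene CENPI was at 2.11% there, and NSL1, of the outer kinetochore, at 47.1%.

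Kinesins differed by their known role. KIF2C, which takes apart microtubule ends at centromeres, was at 53.2, 0.875 and 2.17 FPKM in HEN and at 73.5, 51.3 and 85.6 FPKM in LEN (difference -3.34 ± 1.17, SE). KIF11, the motor that pushes spindle poles apart, was at 39.5, 1.55 and 5.47 FPKM in HEN and at 45.1, 35.3 and 41.3 FPKM in LEN (difference -2.24 ± 0.91, SE). Both genes were within the LEN range in HEN replicate 1 and below every LEN value in the other HEN ovaries, and the position of KIF2C overlaps another gene.

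The kinesin-8 motors followed the same order. KIF18A, which dampens chromosome movement, was at 36.7, 0.273 and 0.975 FPKM in HEN and at 47.7, 36.0 and 30.5 FPKM in LEN (difference -3.08 ± 1.19, SE). KIF18B, which acts on astral microtubules, was at 30.6, 0.346 and 1.20 FPKM in HEN and at 39.9, 24.9 and 46.3 FPKM in LEN (difference -3.02 ± 1.11, SE). KIF14, a motor of cytokinesis, was at 19.9, 0.0538 and 0.764 FPKM in HEN and at 30.6, 17.9 and 15.2 FPKM in LEN. KIF15, a spindle motor that can stand in for KIF11, had the smallest gap of the division kinesins, at 14.1, 2.22 and 6.65 FPKM in HEN and at 13.4, 9.10 and 7.64 FPKM in LEN (difference -0.58 ± 0.56, SE). The 7 division kinesins tested all had a lower mean in HEN, where 62.9% of all transcripts had. At an unadjusted p under 0.05, 6 of the 7 were lower (85.7%, where 16.9% of all transcripts were). The division kinesin left out of the test, KIF2B, was listed at 0.0263 FPKM in HEN replicate 1 and at 0 in every other library.

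At the median, transport and other kinesins were much closer between the groups than division kinesins, though some were low in HEN replicates 2 and 3. KIF5B, the ubiquitous conventional kinesin, was at 40.7, 41.2 and 36.99 FPKM in HEN and at 43.3, 42.8 and 38.5 FPKM in LEN, so that the HEN replicates 2 and 3 that held little KIF11 held nearly as much KIF5B as any other library (difference -0.066 ± 0.19, SE). KIF1B, a carrier of vesicles and mitochondria, was at 18.1, 14.03 and 16.1 FPKM in HEN and at 18.8, 19.7 and 14.8 FPKM in LEN (difference -0.13 ± 0.24, SE). KIF3A, a subunit of the ciliary kinesin-2 motor, was at 14.1, 15.7 and 15.8 FPKM in HEN and at 15.2, 13.4 and 17.4 FPKM in LEN (difference -0.0029 ± 0.22, SE). The signs of KIF5B, KIF1B and KIF3A were positive after upper quartile, trimmed mean or quantile scaling. No difference was detectable for these genes beyond the spread between ducks.

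KIF3B, the partner of KIF3A in that motor, was at 20.1, 7.75 and 10.8 FPKM in HEN and at 18.5, 20.99 and 18.5 FPKM in LEN (difference -0.65 ± 0.35, SE), and its position overlaps another gene. The KIF3B to KIF3A ratio was 1.42, 0.492 and 0.684 in HEN and 1.07 to 1.57 in LEN, so that KIF3A was the more abundant partner in HEN replicates 2 and 3 and KIF3B in the other libraries. KIF5C, a conventional kinesin best known from neurons, was at 4.10, 0.262 and 0.173 FPKM in HEN and at 4.09, 2.74 and 3.43 FPKM in LEN (difference -1.16 ± 0.59, SE). It had the lowest share of the LEN mean among the transport kinesins tested, at 7.66% and 5.07% in HEN replicates 2 and 3. In those libraries KIF9 was at 11.9% and 31.5% of its LEN mean, KIF24 at 32.4% and 37.2% and KIF25 at 28.9% and 27.9%. KIF26B, a kinesin relative known from kidney development in mice, was at 2.001, 1.66 and 0.384 FPKM in HEN and at 3.08, 2.47 and 2.27 FPKM in LEN, without overlap (difference -0.69 ± 0.38, SE).

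Of 16 transport and other kinesins tested, 13 had a lower (81.25%, where 62.9% of all transcripts had) and 3 a higher mean in HEN. None had an unadjusted p under 0.05 (16.9% of all transcripts lower and 5.1% higher). The median difference was -0.19, near the -0.24 of all transcripts. In HEN replicate 2, 10 of the 16 lay below every LEN library, and 10 did in HEN replicate 3 (62.5% each, where 54.7% and 54.6% of all transcripts did). The higher ones were KIF13A, KIF13B and KIF16B, endosomal and vesicle motors, with differences of 0.27 ± 0.29, 0.26 ± 0.30 and 0.076 ± 0.26 (SE). With upper quartile, trimmed mean and quantile scaling, the median of the transport kinesins was 0.054, 0.056 and 0.11, and that of the division kinesins was -2.52, -2.52 and -2.16.

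**Figure D3:**
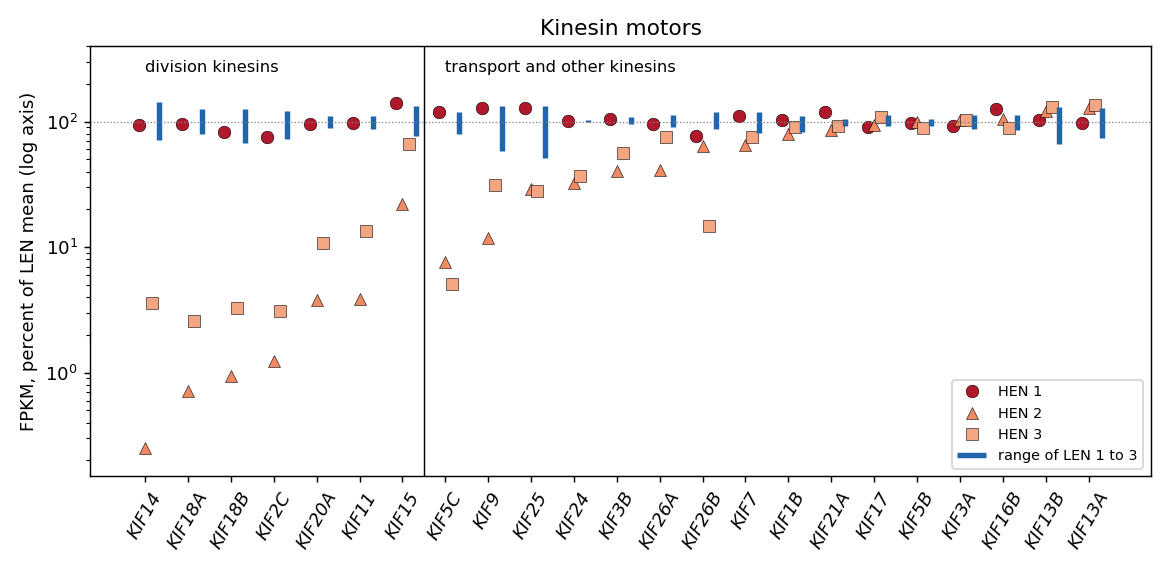
FPKM in each HEN library as a percentage of the LEN mean (log axis) for the 23 kinesins tested, with a blue bar for the range of the LEN libraries. In HEN replicate 2 the division kinesins left of the line lie between 0.253% (KIF14) and 22.1% (KIF15), and the transport and other kinesins lie between 7.66% (KIF5C) and 129% (KIF13A).

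Replication genes had lower means in HEN throughout, for 23 of 23 genes, where 62.9% of all transcripts had. At an unadjusted p under 0.05, 8 were lower (34.8%, where 16.9% of all transcripts were). The median gene kept 29.6% and 33.1% of its LEN mean in HEN replicates 2 and 3, against 73.9% and 73.6% over all transcripts, and POLE3, POLE2, POLA1, MCM4, MCM9 and GINS4 kept the most in HEN replicate 2, between 67.5% and 79.6%. The origin recognition subunit gene ORC4 was at 36.2, 14.8 and 16.8 FPKM in HEN and at 46.1, 42.2 and 64.1 FPKM in LEN, without overlap (difference -1.22 ± 0.37, SE). ORC6, the smallest protein of that complex, was at 49.6, 13.1 and 12.3 FPKM in HEN and at 55.1, 47.4 and 85.9 FPKM in LEN (difference -1.55 ± 0.55, SE). Within the complex ORC5 kept 15.3% and 12.8% of its LEN mean in HEN replicates 2 and 3 and ORC3 kept 48.2% and 66.5%.

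The helicase subunits MCM2 to MCM6 were more unequal in HEN replicates 2 and 3, where the highest exceeded the lowest 37.1 and 8.96 times. The ratio was 2.77 in HEN replicate 1 and 3.89 to 5.48 in LEN. MCM7 was not among the 84 genes. MCM4 was at 48.9, 31.4 and 32.9 FPKM in HEN and at 41.0, 46.6 and 51.8 FPKM in LEN (difference -0.31 ± 0.25, SE). MCM5, a subunit of the same ring, was at 33.4, 0.846 and 4.14 FPKM in HEN and at 22.4, 24.4 and 28.98 FPKM in LEN (difference -1.92 ± 0.96, SE). MCM5 was thus at 0.683 of the MCM4 level in HEN replicate 1 and 0.524 to 0.560 in LEN, but at 0.0270 and 0.126 in HEN replicates 2 and 3. MCM2, MCM3 and MCM6 lay between, at 11.8%, 8.37% and 43.3% of the LEN mean in HEN replicate 2. In HEN replicate 1 the means were exceeded, with MCM3 at 172%, MCM5 at 132% and MCM2 at 131%. There, 9 of the 23 replication genes lay above every LEN library, where 20.6% of all transcripts did. MCM8, a helicase for homologous recombination needed for fertility in mice, was at 5.38, 0.996 and 1.46 FPKM in HEN and at 12.3, 5.19 and 8.26 FPKM in LEN (difference -1.54 ± 0.52, SE).

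DNA polymerase epsilon, which copies the leading strand, showed the widest split between subunits. POLE3, a small histone-fold subunit shared with a chromatin remodelling complex, was at 76.4, 62.4 and 42.6 FPKM in HEN and at 72.1, 74.7 and 99.6 FPKM in LEN (difference -0.46 ± 0.28, SE). POLE, which carries the catalytic site, was at 6.98, 0.0809 and 0.683 FPKM in HEN and at 4.10, 5.61 and 4.08 FPKM in LEN (difference -1.19 ± 0.72, SE). POLE was therefore at 152%, 1.76% and 14.9% of its LEN mean in HEN replicates 1, 2 and 3, and POLE2, the next subunit, at 115%, 74.3% and 62.5%. The fork proteins CDC45 and MCM10 were at 2.37% and 2.02% in HEN replicate 2, while the GINS subunit genes GINS2, GINS3 and GINS4, which join CDC45 at the helicase, were at 29.6%, 41.3% and 79.6%. Across the epsilon subunits the highest exceeded the lowest 10.9, 771 and 62.4 times in HEN and 13.3 to 24.4 times in LEN. The 771 divides by 0.0809 FPKM of POLE in HEN replicate 2, below the 0.160 FPKM that 3 fragments on 1 kb equal there. The ratio of the highest to the lowest subunit did not widen in every complex. For the GINS genes it was 2.66, 1.58 and 1.56 in HEN and 1.91 to 2.61 in LEN. For AURKA with TPX2 it was 4.06, 1.71 and 1.32 in HEN and 2.13 to 3.11 in LEN. For the origin recognition genes it was 4.37, 7.44 and 10.1 in HEN and 4.98 to 11.2 in LEN. The genes at the ends changed, so these ratios do not mean that subunits kept equal shares. AURKA was above TPX2 in HEN replicate 1 and LEN, and below it in HEN replicates 2 and 3. Between the same libraries the lowest GINS gene changed from GINS4 to GINS2. The highest origin recognition gene changed from ORC6 to ORC4 and the lowest from ORC3 to ORC5. These comparisons of subunits were chosen after the values were seen and are given as descriptions. They cover only subunits among the 84 genes, so that ORC1, GINS1 and POLE4 are missing from them, as is MCM7.

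**Figure D4:**
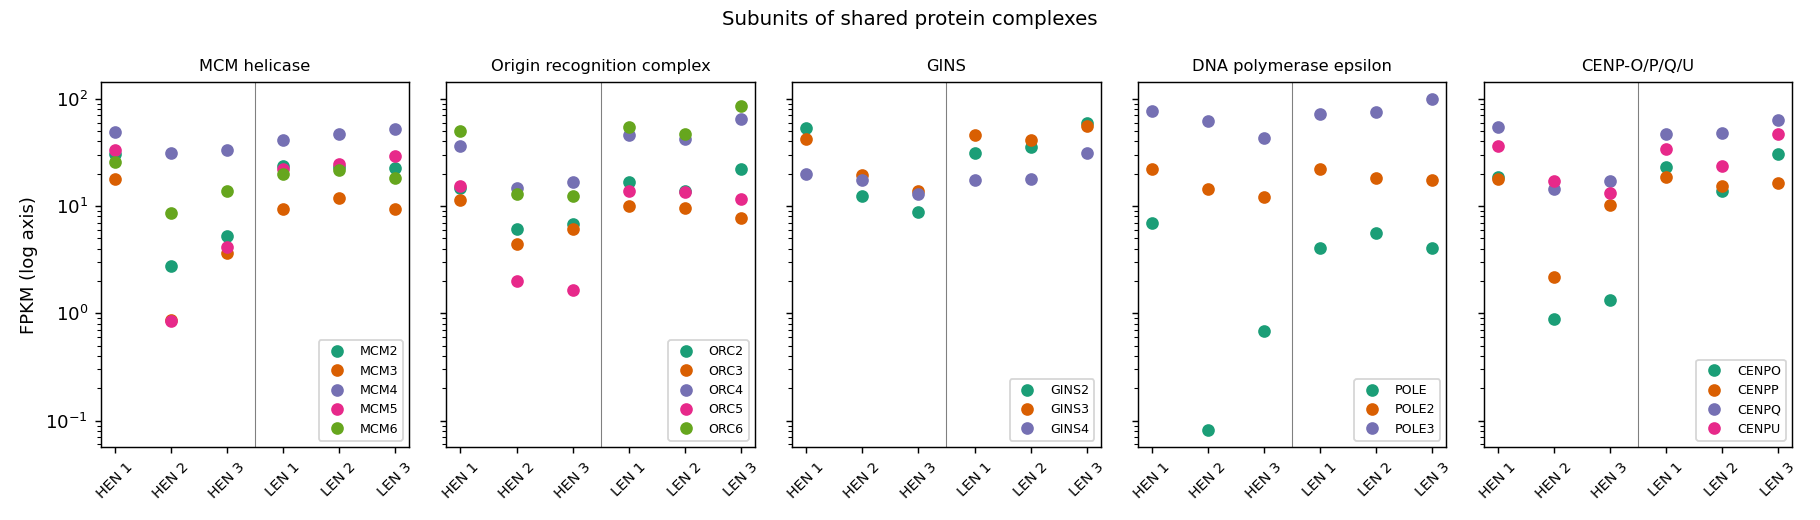
FPKM on a log axis for subunits of 5 protein complexes in each library, with HEN left of LEN. The ratio of the highest to the lowest subunit is wider in HEN replicates 2 and 3 than in the other libraries for the MCM, polymerase epsilon and CENP-O/P/Q/U genes, narrower for GINS (1.58 and 1.56, against 2.66 in HEN replicate 1 and 1.91 to 2.61 in LEN), and within the LEN range for the origin recognition genes.

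HEN replicates 2 and 3 also differed from each other. HEN replicate 3 was above HEN replicate 2 for 60 of the 80 genes (75%, where 53.0% of all transcripts were). The ratio was 3.48 at the median of the division kinesins, from 2.48 for KIF2C to 14.2 for KIF14, and 2.78 at the median of the mitotic kinase and checkpoint genes, up to 9.39 for BUB1B. The KIF14 ratio divides by 0.0538 FPKM in HEN replicate 2, below the 0.160 FPKM that 3 fragments on 1 kb equal there. The BUB1B ratio divides by 0.277 FPKM. At the median, the ratio of HEN replicate 3 to HEN replicate 2 was 1.18 for replication genes and 1.08 for transport kinesins. CCNA1 went the other way, with a ratio of 0.412 on levels of few fragments, next to 7.71 for CDK1 and 2.51 for CCNA2. With 1 library on each side these ratios have no replicate check.

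Other genes of the same pathways were counted from lists of further cell cycle and motor genes. The shares over all transcripts to read these counts against are those above, 62.9% with a lower mean, 16.9% lower and 5.1% higher at an unadjusted p under 0.05. All 22 replication and S phase genes tested outside the families above had a lower mean in HEN, with 7 lower at an unadjusted p under 0.05 and 0 passing (median difference -1.06). TK1, the thymidine kinase of S phase, was at 9.84, 0.940 and 1.84 FPKM in HEN and at 14.7, 13.96 and 19.6 FPKM in LEN, without overlap (difference -2.11 ± 0.62, SE). GMNN, the licensing inhibitor geminin, was at 139, 10.8 and 7.62 FPKM in HEN and at 155, 132 and 219.97 FPKM in LEN (difference -2.78 ± 1.00, SE). RFC4, a clamp loader subunit, and CHAF1A, a histone chaperone, differed by -1.22 ± 0.39 and -1.64 ± 0.57 (SE).

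Of 53 other mitosis genes, 49 had a lower mean in HEN, 19 of them with an unadjusted p under 0.05, and 0 passed (median difference -1.27). WEE2, the inhibitory kinase of CDK1 that is specific to oocytes in mammals, was at 98.8, 0.0627 and 0.290 FPKM in HEN and at 171, 102 and 215 FPKM in LEN, without overlap (difference -4.92 ± 1.65, SE). FBXO5, an inhibitor of the anaphase-promoting complex known as EMI1, and FZR1, an activator of that complex, were also lower in all HEN ovaries, with differences of -2.39 ± 0.80 and -1.47 ± 0.49 (SE). NSL1, of the outer kinetochore, differed by -0.79 ± 0.27 (SE), again without overlap. Common proliferation markers were not all low in both HEN replicates 2 and 3. TOP2A, the topoisomerase of dividing cells, was at 8.08, 0.971 and 7.54 FPKM in HEN and at 3.82, 6.46 and 3.35 FPKM in LEN, and PCNA, the polymerase clamp, was at 90.3, 62.1 and 84.5 FPKM in HEN and at 93.0, 80.2 and 119 FPKM in LEN. Their differences were -0.012 ± 0.62 and -0.30 ± 0.25 (SE), and TOP2A and PCNA were picked after their values were seen.

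Among 17 regulators of cell cycle transcription and inhibitors, 14 had a lower mean in HEN, 5 with an unadjusted p under 0.05 (median difference -0.62). MYBL2, the MYB factor of dividing cells, was at 54.4, 6.93 and 6.71 FPKM in HEN and at 50.8, 42.2 and 84.4 FPKM in LEN (difference -1.94 ± 0.77, SE). CDKN1A, the inhibitor p21 that restrains division, was likewise low in HEN replicates 2 and 3, at 49.5, 6.65 and 11.5 FPKM in HEN and at 71.8, 42.6 and 95.1 FPKM in LEN (difference -1.995 ± 0.69, SE). The E2F family members E2F4 and E2F6 differed by -0.996 ± 0.37 and -1.64 ± 0.54 (SE). Of 20 kinesin partners and dynein subunits, 13 had a lower mean in HEN (65%, near the share of all transcripts), with 5 lower (25%) and 1 higher (5%) at an unadjusted p under 0.05 and a median of -0.54. The dynein light chain gene DYNLL2 was at 135, 20.6 and 14.9 FPKM in HEN and at 147, 135 and 227 FPKM in LEN (difference -2.20 ± 0.78, SE), and the light intermediate chain gene DYNC1LI2 was at 17.8, 32.1 and 29.4 FPKM in HEN and at 14.6, 17.98 and 9.72 FPKM in LEN (difference 0.86 ± 0.33, SE). DYNC1I1 and NDE1 differed by -1.23 ± 0.31 and -1.46 ± 0.56 (SE).

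Markers of germ cells were low in the same libraries as the division genes. Of 13 oocyte and germ cell markers tested, 13 had a lower mean in HEN, and their summed level was 706, 5.12 and 5.83 FPKM in HEN, against 1059, 683 and 1656 FPKM in LEN. DDX4 was listed at 0 in HEN replicate 2, and TDRD6 and DND1 at 0 in HEN replicate 3. MOS, the kinase that holds oocytes in meiosis, was at 65.9, 0.102 and 0.157 FPKM in HEN and at 92.3, 51.3 and 94.8 FPKM in LEN. The part of these markers in the results for division genes was not tested. In tissue samples such as these, fewer cells of a type and less RNA per cell cannot be told apart. Of 15 meiosis genes tested, 12 had a lower mean in HEN (80%, where 62.9% of all transcripts had), but 2 were lower at an unadjusted p under 0.05 (13.3%, where 16.9% of all transcripts were), with a summed level over the 21 in the table of 136, 57.1 and 51.0 FPKM in HEN and 126 to 156 FPKM in LEN.

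Granulosa markers did not move as one. Of 11, 6 had a lower and 5 a higher mean in HEN, and their summed level was 596, 406 and 338 FPKM in HEN, against 651, 422 and 447 FPKM in LEN. The gap junction gene GJA1 made up much of the sum in HEN replicates 2 and 3, at 80.9, 267 and 175 FPKM in HEN and at 79.9, 92.9 and 79.9 FPKM in LEN. In HEN replicates 2 and 3, FOXL2 was at 21.6% and 36.1% of its LEN mean and NR5A1 at 22.2% and 37.9%. WT1 was at 39.8% and 29.1% there, and STAR at 2.82% and 7.08%, with STAR in LEN at 253, 17.9 and 65.0 FPKM. These 4 markers were low in the same libraries as the division genes. They were the only ones of the 11 below every LEN library in HEN replicate 2 (36.4%, where 54.7% of all transcripts were). In HEN replicate 3, FSHR, INHBA and INHBB were below every LEN library too, which made 7 of 11 (63.6%, where 54.6% of all transcripts were). NR5A2, KITLG, FST and GJA1 were not below LEN in either library. NR5A2 was at 398% and 307% of its LEN mean, KITLG at 140% and 134%, FST at 90.3% and 168% and FSHR at 94.3% and 58.0%. INHBA and INHBB were above their LEN means in HEN replicate 2 and below them in replicate 3. Over all transcripts, 37.1% had a higher mean in HEN. Theca and stroma markers (9 of 11 with a higher mean in HEN) summed to 2093 to 2393 FPKM in HEN and 935 to 1959 FPKM in LEN. The 2 lower ones were the steroid enzymes of the list. CYP17A1 was at 239.6, 0.0945 and 0.146 FPKM in HEN and at 521, 33.5 and 185 FPKM in LEN. CYP19A1 was at 46.7, 2.61 and 5.69 FPKM in HEN and at 40.7, 70.7 and 41.5 FPKM in LEN. Leukocyte markers (10 of 13 higher) summed to 813, 1343 and 1770 FPKM in HEN and 432 to 838 FPKM in LEN. CD74 made up much of these sums, at 522, 602 and 724 FPKM in HEN and at 282, 512 and 246 FPKM in LEN. The 3 lower ones were the lymphocyte genes CD3E, CD79B and PAX5, with differences of -0.67 ± 0.49, -0.23 ± 0.44 and -1.56 ± 0.35 (SE). PAX5 was listed at 0 in HEN replicate 1. Endothelial markers (9 of 10 higher) summed to 189.7, 415 and 364 FPKM in HEN and 123 to 215 FPKM in LEN. The erythrocyte markers found, HBM and EPB42, both had a higher mean in HEN and summed to 38.7, 102 and 507 FPKM in HEN and 38.6 to 93.8 FPKM in LEN. The part of these cell types in the levels of the division genes was not tested either.

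**Figure D5:**
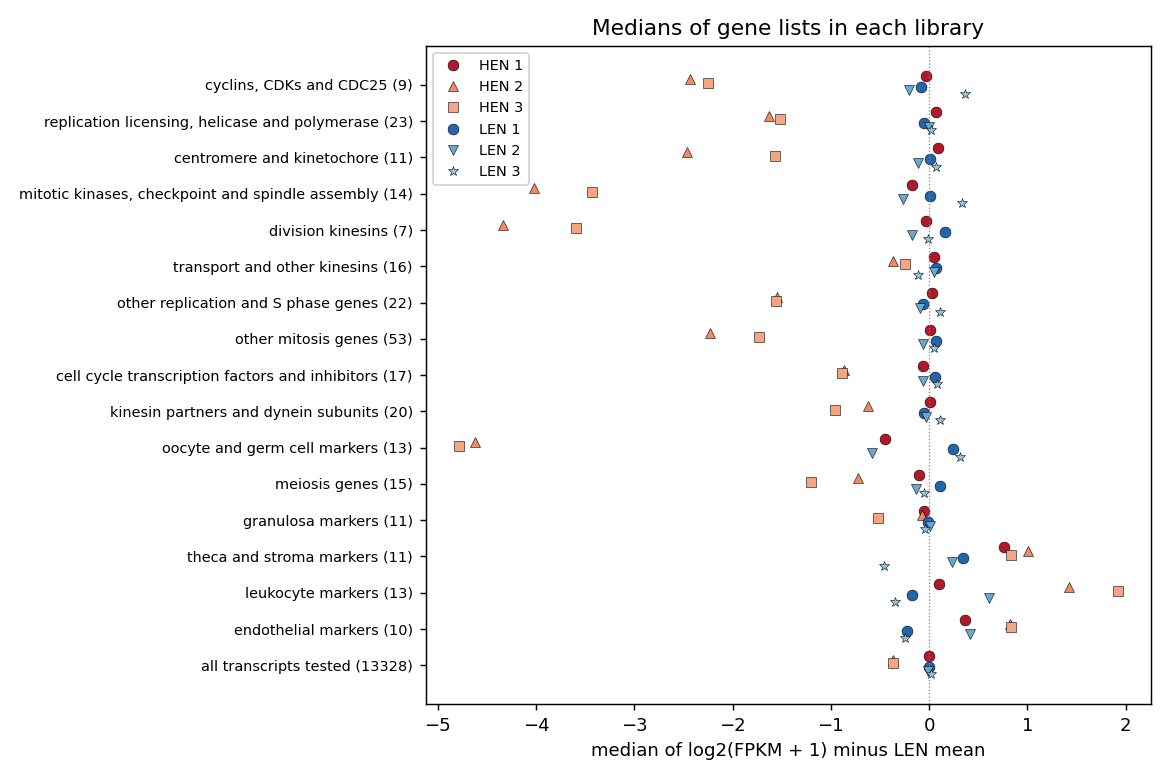
For each list, the median over its genes of log2(FPKM + 1) minus the LEN mean, 1 symbol per library, with the number of genes tested in brackets. HEN replicates 2 and 3 lie at -4.62 and -4.79 for oocyte and germ cell markers, at -4.34 and -3.59 for division kinesins, and at -0.37 and -0.37 over all transcripts tested, while leukocyte markers lie at 1.42 and 1.92.

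A further 4 transcripts carry no symbol in the deposited table and were named through their Entrez identifiers from RefSeq, so they were not counted among the 84. NUF2, the partner of NDC80, was at 87.96, 2.71 and 4.65 FPKM in HEN and at 52.3, 56.4 and 83.7 FPKM in LEN. CCNB3, a B-type cyclin with a role in meiosis in mice, was at 32.6, 0.688 and 3.78 FPKM in HEN and at 32.99, 25.3 and 44.6 FPKM in LEN. CCND2 was at 15.2, 10.6 and 9.35 FPKM in HEN and at 10.2, 18.5 and 8.42 FPKM in LEN, with overlap. KIF2A, a microtubule-depolymerising kinesin also used outside division, was at 7.72, 11.4 and 13.9 FPKM in HEN and at 9.15, 8.32 and 5.36 FPKM in LEN. NUF2 and CCNB3 were thus low in HEN replicates 2 and 3, and CCND2 and KIF2A were not.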

How the data were processed

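RNA sequencing of ovarian tissue from 6 ducks was analysed from a table in which the authors deposited FPKM values, as its name states, for Ensembl duck transcripts. Per the labels' protocols, RNA was extracted with TRIzol and libraries followed standard Illumina steps. Not given in the sources used here are the aligner, the counter, the strandedness and the build. Of 17191 rows, 22 repeated a transcript with the same values, leaving 17169 transcripts of 16450 genes. Coordinates are those of the deposited table. Groups and replicate numbers came from the titles. All ducks are separate animals, and no batch was stated.

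Depth was inferred from steps between values of short noncoding genes, where 100% of values under 200 fragments were whole within 0.02 of a fragment. Floors cover counting error only.

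A pseudocount of 1 was added before taking log2, a scale on which changes of low genes appear too small. The fit covered the 13328 transcripts whose mean reached 1 FPKM. HEN was set against LEN with limma 3.58.1, run in R 4.3.3 (trended moderation, group only, Benjamini-Hochberg adjustment over all transcripts, threshold 0.05, two-sided). All differences are HEN minus LEN on that scale. An exact permutation test of 3 against 3 cannot give a two-sided p below 0.1. The procedure was tested on simulated data drawn with the LEN spread in both groups. That test does not cover a spread as wide as the one within HEN here.

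The genes and lists were chosen with earlier results of these data known. Of the 84 genes, 9 overlap another gene's position (CENPO, CENPP, CENPU, KIF20A, KIF2C, PLK1, MCM9, POLA1 and KIF3B), and KIF25 has several rows. Overlap was judged from start to end on a scaffold, on either strand and with introns. Whether fragments of such genes were mixed was not tested. Named were all cyclins and CDKs, the 4 genes of each other role with the highest mean, the 3 with the smallest unadjusted p and any gene with HEN above LEN in every library (37 in all), and the 4 smallest p in each pathway list. Other genes were named after their values were seen. Of 19 alternative settings, the closing section gives the effects.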

Additional observations from a re-analysis of the deposited data

How the results depend on the processing

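Over all transcripts, the 0 higher and 0 lower calls ranged from 0 to 1569 and from 0 to 4932 on leaving out each library in turn, and those of the 80 genes from 0 to 1 and from 0 to 58, the upper ends without HEN replicate 1. With sample weights (arrayWeights) there were 2194 higher and 5728 lower calls, 1 and 64 of them among these genes. No filter gave 1 higher and 3 lower, a pseudocount of 0.1 or scaling to TPM 1 lower, and leaving out HEN replicates 2 and 3 together 1 higher call. Without that pair, where 1 HEN library stands alone and is assumed to vary like LEN, the median difference was 0.0048 over the genes, -0.033 for cyclins and CDKs, 0.070 for replication, -0.17 for mitotic kinases, -0.030 for division kinesins and 0.048 for transport kinesins. The transport median was 0.11, 0.056 and 0.054 after quantile, trimmed mean and upper quartile scaling and -0.41 with sample weights. Those scalings moved the median of all transcripts to 0.073, 0.0016 and -5.8e-05 as against -0.24.

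Among the genes named by rule, these signs changed. After quantile, trimmed mean and upper quartile scaling KIF1B was at 0.14, 0.12 and 0.12, KIF3A at 0.29, 0.25 and 0.25 and KIF5B at 0.17, 0.20 and 0.20. KIF3A was at 0.012 after scaling to TPM and, with sample weights, at 0.058, where CCND1 was at -0.060. On leaving out each library, CCND1 ranged from -0.20 to 0.39 and KIF3A from -0.091 to 0.086. Without HEN replicates 2 and 3, the values were 0.36 for CENPM, 0.055 for CENPQ, 0.11 for CENPU, 0.35 for CCNA2, 0.16 for CDK1, 0.0046 for BUB3, 0.080 for MCM4, 0.040 for KIF1B, 0.057 for KIF3B and 0.22 for KIF5C. The cause was not tested. With the replicate number as a block there were 0 calls and the median over the genes was -1.11. The labels do not say that the numbers pair animals, and deviations of same-numbered libraries correlated at r = 0.017, 0.38 and -0.42.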
